A study of Mus musculus with 4 samples.

Results

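The 10 genes described here are the Ikaros family genes Ikzf1, Ikzf2, Ikzf3 and Ikzf4 and a group of genes linked to the surface and function of regulatory T cells, Nrp1, Lrrc32, Nt5e, Entpd1, Capg and Ebi3. They were chosen by gene symbol, and all 10 were found among the 31748 gene rows of the deposited count tables. All 10 also passed the filter on low counts, which left 12752 genes for testing. Their counts ran from 96 to 11018 per library.

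RNA-seq was done on 2 libraries labelled TEaMthfd2 KO (called KO here) and 2 labelled TEaWT (WT). In both groups the cells are labelled as splenic CD4+ T cells with the TEa receptor transgene, taken from 8-week-old mice by positive magnetic selection. Both groups were cultured for 3 days with mitomycin-treated antigen-presenting cells sorted from spleens of F1 (BALB/c x C57BL/6) mice, also 8 weeks old, so cells of a second kind were in every culture. TEa T cells respond to a donor peptide on a recipient class II molecule, so the culture as labelled is a model of graft recognition. Mthfd2 is a mitochondrial enzyme of folate metabolism. The labels do not say how Mthfd2 was deleted, in which cells, or whether replicates were separate mice or cultures. The p-values therefore reflect library-to-library spread that could be technical.

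Regulatory T cells restrain other T cells and are defined by the transcription factor Foxp3. The Ikaros family are zinc finger proteins that bind DNA and recruit chromatin-remodelling and histone deacetylase complexes; Ikaros and Aiolos are widely expressed in lymphocytes, while Helios and Eos are enriched in regulatory T cells. The surface members act outside the cell: GARP (Lrrc32) holds latent TGF-beta, CD39 (Entpd1) and CD73 (Nt5e) turn extracellular ATP into adenosine, and neuropilin-1 (Nrp1) binds semaphorins and VEGF. None of the 10 is confined to regulatory T cells, and several are also expressed by activated T cells, B cells or dendritic cells.

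Library totals ranged from 14191401 to 15955863 counts. The label of CD4+ cells was not borne out: per length, Cd8a stood at between 3.43 and 4.43 times Cd4, and Trbv19, which encodes the variable part of the TEa beta chain, took between 6.37% and 8.39% of Trbv counts. H2-Ea, the class II gene that gives the donor peptide, had 0 and 0 counts in KO replicates 1 and 2. In WT replicates 1 and 2 it had 2 and 0 counts, with its pseudogene name included. Expression of the donor gene in the cultures was thus not borne out either, and the reason was not tested. Mthfd2 averaged 237 ± 20.6 CPM (library-scaled counts, with totals adjusted by TMM factors) in the libraries labelled KO and 280 ± 0.450 CPM in those labelled WT (SD, n = 2 each; edgeR quasi-likelihood, Benjamini-Hochberg adjusted p = 0.324). A whole-gene count does not show whether single exons were lost. Directions below therefore rest on the labels, and the values are those of the whole culture. On the first principal component WT replicate 1 (65.1) and WT replicate 2 (19.6) lay farther apart than KO replicates 1 and 2 (-43.8 and -40.9). The 10 B cell markers summed to between 455 and 511 CPM in KO libraries and between 868 and 1399 CPM in WT libraries, with WT replicate 1 the highest, none at 0 in KO libraries, and 4 of 10 called lower in KO (edgeR). The 16 myeloid and dendritic markers summed to between 73.6 and 96.9 CPM in KO and between 118 and 165 CPM in WT libraries. Of 10 tested, 1 was called lower. Cst3 made up most of the sum in every library, and its groups overlapped. Cd14, Siglech and Clec9a were at 0 in KO libraries and did not pass the filter. In WT replicates 1 and 2 Cd14 had 2 and 1 counts, Clec9a 2 and 0, and Siglech 58 and 10. A value of 0 for Cd14 or Clec9a in KO libraries therefore does not show a loss. The 9 T cell markers summed to between 3002 and 3150 CPM in KO and between 2050 and 2205 CPM in WT libraries. Of these 9, 3 were called higher (Cd3e, Cd3d and Cd3g), and Cd5 had a negative log2 fold change (-0.09). Over all tested genes edgeR called 2.39% higher and 1.56% lower. Of 9 plasma cell markers 8 were tested and 4 called lower, of 7 erythroid and platelet markers 5 were tested and 2 called lower, and of 8 endothelial and stromal markers only Pecam1 passed the filter and it was not called. The part of these differences in the results on the 10 genes was not tested, and in bulk libraries fewer cells of a type and less RNA per cell cannot be told apart.

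The sequence before the Nrp1 start is shown because Nrp1 was the member whose difference passed the test. The 250 bases upstream of its RefSeq start (GRCm38.p6, plus strand, chr8:128358823-128359072) lie inside the annotated Nrp1 span and overlap no annotated exon. Capitals mark the core letters of the hypoxia-response element, searched as ACGTG and GCGTG on both strands, and the single match is a GCGTG read on the minus strand.
Nrp1: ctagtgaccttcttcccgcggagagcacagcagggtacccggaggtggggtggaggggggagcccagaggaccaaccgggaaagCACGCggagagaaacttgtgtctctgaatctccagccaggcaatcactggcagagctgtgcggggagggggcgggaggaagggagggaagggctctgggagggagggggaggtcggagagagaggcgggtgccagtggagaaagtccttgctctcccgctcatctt
The match lies 161 bases before the start. In Nt5e, the member with the next largest positive difference, the same search found 1 match, 133 bases before the start. The Nt5e window overlaps an annotated exon of the gene. The match is shown with 12 bases on each side (GRCm38.p6, plus strand, chr9:88327459-88327487).
Nt5e: tccctgcgggctGCGTGtgctgggccaga
Promoter windows were matched for 6 members, with 8 windows in all because Ikzf1 and Entpd1 have 2 each. The hypoxia core was in 3 of the 8 windows (37.5%), 1 each of Nrp1, Nt5e and Entpd1, and in 38.6% of all 32851 windows of this length. The Ikaros core, searched as GGGAA on both strands, was in 7 of the 8 windows and in 56.2% of all windows. A match of this length is a description of the sequence and not a binding site.

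Of the 10 members, 1 was higher in KO libraries by the edgeR quasi-likelihood test (Nrp1) and 0 were lower. Over all tested genes 3.95% were called in either direction, 2.39% higher and 1.56% lower, so a single call among 10 genes is close to that background. At an unadjusted p under 0.05, 2 members were higher (Nrp1 and Nt5e) and 2 lower (Ikzf4 and Lrrc32), against 25.5% of all tested genes in either direction. DESeq2 called 2 higher (Nrp1 and Nt5e) and 1 lower (Ikzf4), where it called 12.8% of all genes. Without the filter on low counts edgeR called Nrp1 and Ikzf4, and 7.73% of all genes. Both KO libraries lay above both WT libraries for 4 members and below them for 3. Among all tested genes 29.8% lay above and 30.1% below, 59.9% together. The median log2 fold change of the members was 0.12, beside -0.0026 for all tested genes.

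**Figure D1:**
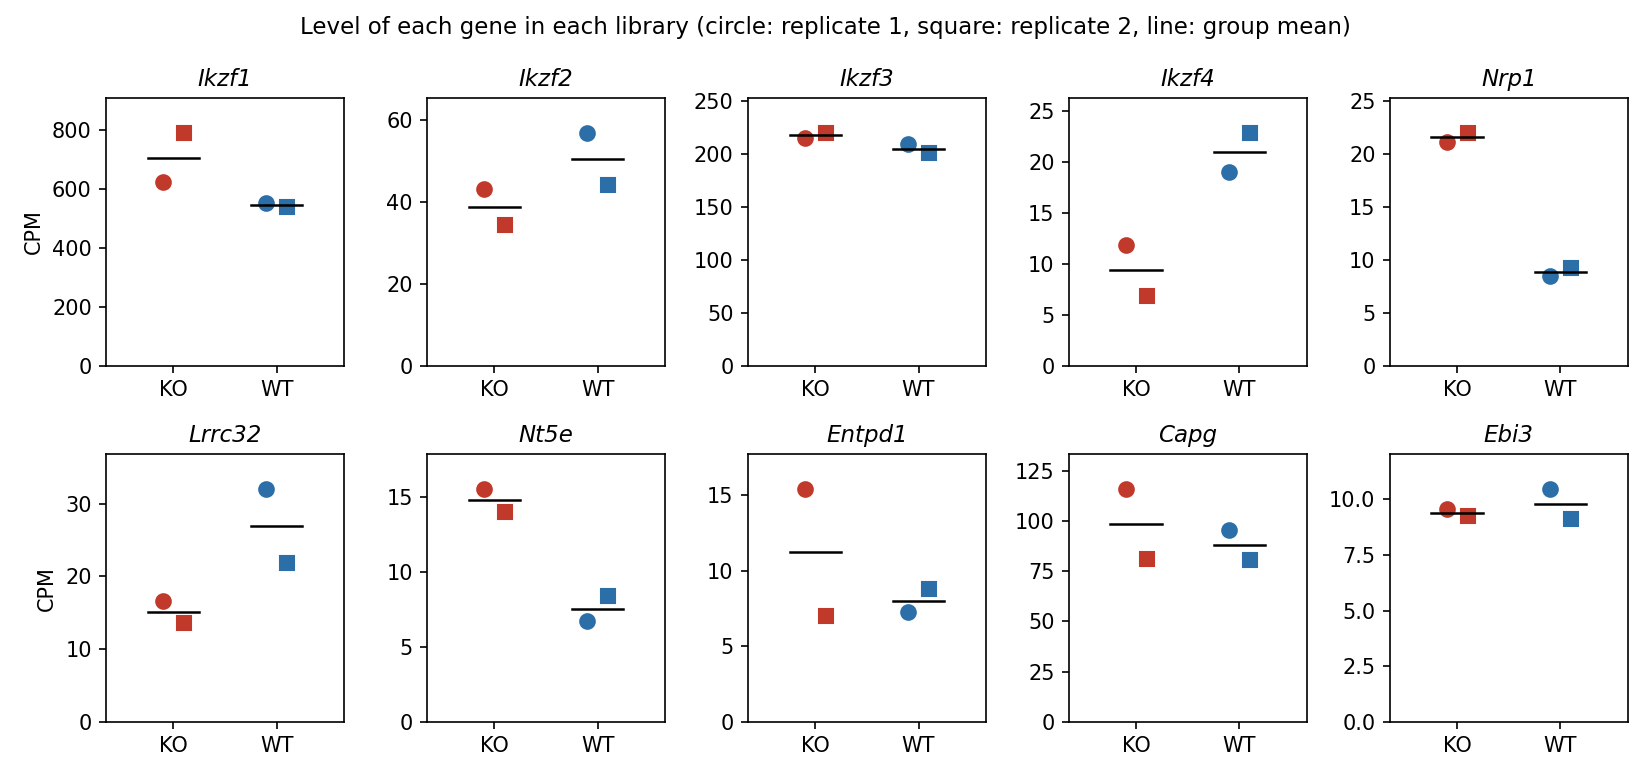
Level of each of the 10 genes in CPM in every library, KO left and WT right, each panel on its own linear axis starting at 0; circles are replicate 1, squares replicate 2 and lines group means. Nrp1 stands at 21.1 and 22.0 CPM in KO libraries, above 8.49 and 9.26 CPM in WT libraries, while the groups overlap for Entpd1, Capg and Ebi3.

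Neuropilin-1 showed the largest positive difference of the 10. Nrp1 (ENSMUSG00000025810.9, chromosome 8, 128358604 to 128503363, plus strand in GENCODE M21, GRCm38) had 299 and 307 counts in KO replicates 1 and 2, against 139 and 137 counts in WT replicates 1 and 2. These are 21.1 and 22.0 CPM in KO libraries and 8.49 and 9.26 CPM in WT libraries, so the replicates of each group nearly coincided and the groups were well apart. The fold was 2.43 (log2 fold change 1.28 ± 0.22, SE; 95% interval 0.75 to 1.82; edgeR adjusted p = 0.0400). With a library left out the log2 fold change stayed between 1.23 and 1.35. It was no longer called when WT replicate 1 (adjusted p = 0.0515), KO replicate 1 (0.322) or KO replicate 2 (0.213) was left out. Without either KO library edgeR called 0 genes of any kind, with 1566 and 2097 at an unadjusted p under 0.05. Nrp1 is also expressed by dendritic cells, and of the 10 myeloid and dendritic markers tested 2 had positive and 8 negative log2 fold changes. Of the 9 T cell markers tested, 8 had positive log2 fold changes and 1 a negative one. Among them edgeR called Cd3e (0.81), Cd3d (0.86) and Cd3g (1.26) higher in KO libraries. The part of either cell type in the Nrp1 difference was not tested.

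The other neuropilin and the ligands of Nrp1 gave no call in edgeR. Nrp2, which binds other class 3 semaphorins and VEGF-C, had 8.70 and 3.08 CPM in KO libraries and 20.0 and 13.0 CPM in WT libraries, with no overlap and in the opposite direction to Nrp1, but its log2 fold change of -1.49 ± 0.49 did not pass (edgeR adjusted p = 0.128). It was singled out after its values were seen. Nrp1 counts per Nrp2 count were 2.43 and 7.14 in KO libraries and 0.425 and 0.710 in WT libraries. Of 21 ligands, co-receptors and partners in the tables, 9 passed the filter, and edgeR called 0 in either direction. An unadjusted p under 0.05 was reached by 3 in the higher and 2 in the lower direction, against 25.5% of all tested genes in either direction. DESeq2 calls numbered 1 in each direction, against 12.8% of all tested genes in either. The most abundant were the semaphorins Sema4d (0.38) and Sema4a (0.62) and the adaptor Gipc1 (0.43). Sema4a is a ligand of neuropilin-1 on regulatory T cells. These values are log2 fold changes, with edgeR adjusted p between 0.125 and 0.207. Log2 fold changes were positive for 7 of the 9 and negative for 2, with a median of 0.23. The largest positive one was that of the ligand Vegfa, also singled out after its values were seen (1.23 ± 0.31, edgeR adjusted p = 0.0711).

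CD73 and CD39 act in sequence on extracellular nucleotides, CD39 making AMP and CD73 turning AMP into adenosine, and neither message was called by edgeR. Nt5e, which encodes CD73 (chromosome 9, 88327197 to 88372092, plus strand), had 15.6 and 14.1 CPM in KO libraries and 6.72 and 8.38 CPM in WT libraries. Both KO libraries were above both WT libraries, and the fold was 1.96 (log2 fold change 0.97 ± 0.26; 95% interval 0.35 to 1.60), but the adjusted p of 0.0830 (edgeR) missed the threshold. DESeq2 called it (adjusted p = 0.0340), and so did edgeR without WT replicate 2 (0.0416), a fit in which 19.8% of all genes were called.

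Entpd1, which encodes CD39 (chromosome 19, 40612366 to 40741602, plus strand), had 15.4 and 7.03 CPM in KO libraries and 7.27 and 8.79 CPM in WT libraries. Only KO replicate 1 was high. Its 218 counts (95% Poisson interval 190 to 249, counting error only) and the 98 counts of KO replicate 2 (79.6 to 119) differed by more than counting error, and the ratio between these replicates was 2.19. The log2 fold change was 0.48 ± 0.41 (95% interval -0.49 to 1.45; edgeR adjusted p = 0.493), and without KO replicate 1 it was -0.19. Nt5e counts per Entpd1 count were 1.01 and 2.00 in KO libraries and 0.924 and 0.954 in WT libraries.

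Among 18 tested genes of extracellular ATP and adenosine, 1 was higher and 1 lower (edgeR). Dpp4, the surface peptidase CD26 that binds adenosine deaminase, rose to 84.3 and 75.3 CPM in KO libraries, against 35.1 and 34.1 CPM in WT libraries (log2 fold change 1.21 ± 0.16, adjusted p = 0.0292). Slc29a2, an equilibrative nucleoside transporter, fell to 7.14 and 8.32 CPM in KO libraries, against 33.2 and 20.4 CPM in WT libraries (-1.79 ± 0.30, adjusted p = 0.0400). The adenosine receptor Adora2a stood at 69.1 and 64.3 CPM in KO and at 56.8 and 45.9 CPM in WT libraries (0.38 ± 0.17, adjusted p = 0.226). The more abundant genes that were not called were the transporter Slc29a1 (-0.35), the receptor P2ry10 (0.47) and adenosine kinase, Adk (0.12), and the median of the 18 was 0.03.

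**Figure D2:**
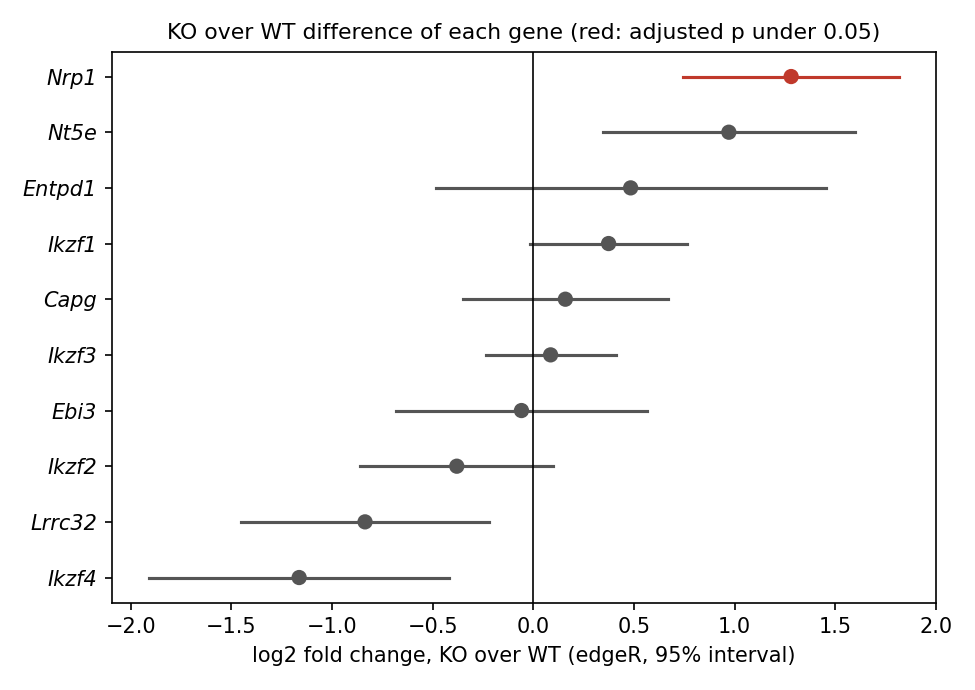
Log2 fold change of each member, KO over WT, with its 95% interval from the edgeR fit (n = 2 libraries per group); the vertical line marks 0. Nrp1, in red, is the member with an adjusted p under 0.05, the interval also lies on 1 side of 0 for Nt5e, Lrrc32 and Ikzf4, and it spans 0 for the other 6.

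GARP lay lower in both KO libraries, but the difference did not pass the test. Lrrc32, the receptor that displays latent TGF-beta on activated regulatory T cells (chromosome 7, 98489283 to 98502181, plus strand), had 16.6 and 13.5 CPM in KO libraries and 32.0 and 21.8 CPM in WT libraries. The groups did not overlap, as for 59.9% of all tested genes, and the WT libraries were 1.47 times apart, with WT replicate 1 the higher. The log2 fold change was -0.84 ± 0.26 (95% interval -1.45 to -0.22; edgeR adjusted p = 0.111), -0.53 without WT replicate 1 and -1.08 without WT replicate 2 (adjusted p = 0.0194).

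Its cargo and the activating machinery gave no call in edgeR. Tgfb1 itself stood at 224 and 247 CPM in KO libraries and at 232 and 249 CPM in WT libraries (log2 fold change -0.03 ± 0.14, 95% interval -0.37 to 0.30, edgeR adjusted p = 0.912). Of 14 tested genes that activate or transduce TGF-beta, edgeR called 0. Log2 fold changes were negative for 10 of them and positive for 4, with a median of -0.26. By unadjusted p (under 0.05) 0 stood higher and 2 lower, and DESeq2 calls numbered 0 and 1 (Skil, adjusted p = 0.0255). The shares of all tested genes in either direction were 25.5% and 12.8%. The most abundant were the protease Furin (-0.46), the pathway inhibitor Skil (-0.55) and the receptor Tgfbr2 (0.06), with edgeR adjusted p between 0.0861 and 0.882.

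None of the 4 Ikaros family genes was called by edgeR, and the point estimates were positive for the 2 abundant members and negative for the 2 rarer ones. Ikzf1, which encodes Ikaros (chromosome 11, 11685003 to 11772926, plus strand), had 622 and 790 CPM in KO libraries and 550 and 539 CPM in WT libraries. The groups did not overlap, but KO replicate 2 alone was far above the rest, and the log2 fold change of 0.37 ± 0.16 did not pass (95% interval -0.02 to 0.77; edgeR adjusted p = 0.212). Ikzf3, which encodes Aiolos (chromosome 11, 98464902 to 98546031, minus strand), had the smallest SE of the 10, with 215 and 220 CPM in KO libraries and 209 and 200 CPM in WT libraries (0.09 ± 0.14; 95% interval -0.24 to 0.41; adjusted p = 0.732). B cells express both genes, and their markers were lower in the same KO libraries.

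Helios and Eos, the members most tied to regulatory T cells, had both KO libraries below both WT libraries, as did 30.1% of all tested genes. Ikzf4, which encodes Eos, a co-repressor that binds Foxp3 (chromosome 10, 128630843 to 128645991, minus strand), had 11.8 and 6.88 CPM in KO libraries and 19.1 and 22.8 CPM in WT libraries. This was the largest negative difference of the 10 (log2 fold change -1.16 ± 0.31; 95% interval -1.91 to -0.42), and it missed the threshold in edgeR (adjusted p = 0.0828) and passed it in DESeq2 (0.0178). The KO libraries were 1.72 times apart, and the log2 fold change was -1.60 without KO replicate 1 and -0.83 without KO replicate 2. Ikzf2, which encodes Helios (chromosome 1, 69531214 to 69687245, minus strand), had 43.1 and 34.5 CPM in KO libraries and 56.9 and 44.1 CPM in WT libraries. KO replicate 1 and WT replicate 2 nearly met, and the log2 fold change of -0.38 ± 0.20 did not pass (95% interval -0.86 to 0.10; edgeR adjusted p = 0.283).

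Set on a per-length scale (TPM, counts per exon length of GENCODE M21 scaled to a fixed sum), Ikzf1 made up 78.1% and 82.4% of the summed TPM of the family in KO libraries and 74.9% and 75.4% in WT libraries. Ikzf3 held 17.8% and 15.1% in KO and 18.8% and 18.5% in WT libraries. The remainder was small in every library. Ikzf2 held 2.69% and 1.79% in KO and 3.85% and 3.07% in WT libraries, and Ikzf4 1.43% and 0.692% in KO and 2.50% and 3.08% in WT libraries. KO replicate 2 had the highest Ikzf1 share and the lowest share of each of the other 3, and shares of a fixed total are not independent. With the longest transcript as the length of each gene, the share of Ikzf3 was between 23.2% and 26.8% in KO and between 27.7% and 28.1% in WT libraries.

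**Figure D3:**
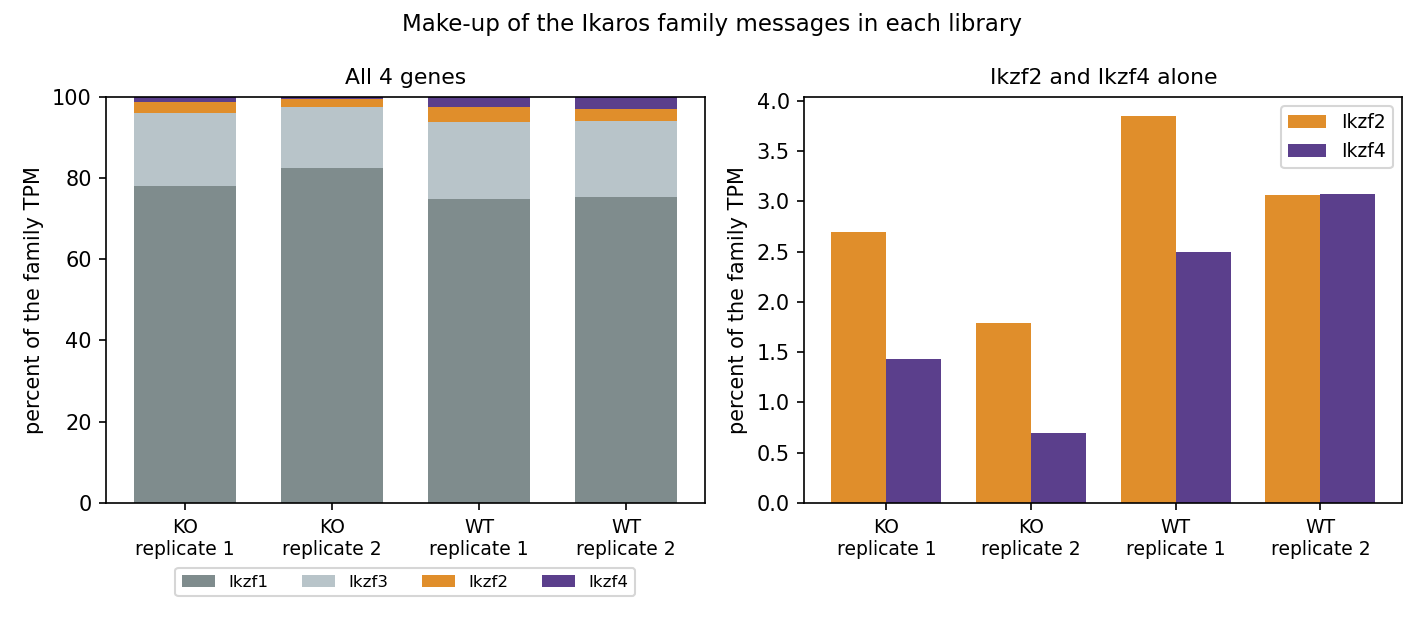
Percent of the summed TPM of Ikzf1 to Ikzf4 held by each gene in each library, KO libraries left of WT libraries; the left panel stacks all 4 genes and the right panel shows Ikzf2 and Ikzf4 on an axis of their own. Ikzf1 holds between 74.9% and 82.4%, and the shares of Ikzf2 and Ikzf4 are lower in both KO libraries than in both WT libraries.

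The partners of Ikaros proteins gave no call in edgeR or DESeq2. Of 18 tested subunits of the NuRD and Sin3 complexes and other partners, both tools called 0. By unadjusted p (under 0.05) 3 stood higher and 0 lower, against 25.5% of all tested genes in either direction. The most abundant were the NuRD remodeller Chd4 (0.12) and the histone-binding subunits Rbbp4 (0.19) and Rbbp7 (0.09; log2 fold changes, edgeR adjusted p between 0.502 and 0.795). The median of the 18 was 0.15.

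The remaining members did not separate the groups. Capg, an actin filament capping protein that recurs in regulatory T cell signatures (chromosome 6, 72544391 to 72562983, plus strand), had 116 and 81.2 CPM in KO libraries and 95.6 and 80.8 CPM in WT libraries, with replicate 2 the lower in each group. Its log2 fold change was 0.16 ± 0.21 (95% interval -0.35 to 0.67; edgeR adjusted p = 0.680), and -0.12 without KO replicate 1. Ebi3, the beta chain shared by IL-27 and IL-35 (chromosome 17, 55952640 to 55957022, plus strand), had 9.55 and 9.25 CPM in KO libraries and 10.4 and 9.13 CPM in WT libraries. All 4 values lay within a narrow range, and the log2 fold change of -0.06 ± 0.26 allowed a change between -0.68 and 0.56 (edgeR adjusted p = 0.913). The annotated gene Gm16712 overlaps Ebi3 on the opposite strand and had 32 and 14 counts in KO and 43 and 55 counts in WT libraries; the use of strand is not given in the sources used here, so reads of the 2 genes may be mixed.

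The chains that pair with Ebi3 had low counts. Il12a, which pairs with it in IL-35, had 24 and 9 counts in KO libraries and 46 and 34 counts in WT libraries (log2 fold change -1.12 ± 0.62, edgeR adjusted p = 0.300), and its log2 fold change was -1.97 without KO replicate 1 and -0.59 without KO replicate 2. Il27, which pairs with it in IL-27, had 15 and 6 counts in KO libraries and 23 and 3 counts in WT libraries, so each group's replicates were far apart. The receptor genes were abundant, with Il12rb1 at -0.12, Il6st at 0.17 and Il27ra at -0.18 (log2 fold changes, edgeR adjusted p between 0.493 and 0.755). Of 9 tested genes of this family edgeR and DESeq2 called 0, and 1 stood lower by unadjusted p (under 0.05). At that unadjusted threshold 25.5% of all tested genes passed in either direction.

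In the group of actin capping and severing proteins to which Capg belongs, 1 of 15 tested genes was higher and 0 were lower (edgeR). Gsn, which encodes gelsolin, the severing protein of the same family as Capg, rose to 40.5 and 21.1 CPM in KO libraries, against 7.82 and 8.04 CPM in WT libraries (1.96 ± 0.34, adjusted p = 0.0400). The most abundant of the others were Cfl1 (0.29), Cap1 (0.13) and Wdr1 (0.22), none of which passed (edgeR adjusted p between 0.257 and 0.576).

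Foxp3 itself was not called by edgeR with all 4 libraries, and the best known genes of the regulatory T cell programme had differences of both signs. Foxp3 had 19.6 and 15.2 CPM in KO libraries and 31.6 and 25.8 CPM in WT libraries (log2 fold change -0.72 ± 0.23, 95% interval -1.26 to -0.18, edgeR adjusted p = 0.114). Its groups did not overlap, as with Lrrc32, Ikzf4 and 59.9% of all tested genes. Il2ra, the IL-2 receptor alpha chain CD25, had 673 and 564 CPM in KO and 949 and 1168 CPM in WT libraries (-0.78 ± 0.17, adjusted p = 0.0568). Ctla4, an inhibitory receptor, had 424 and 231 CPM in KO and 70.8 and 158 CPM in WT libraries (1.51 ± 0.42, adjusted p = 0.0889), and Il2rb, the IL-2 receptor beta chain, 1323 and 1236 CPM in KO and 465 and 749 CPM in WT libraries (1.08 ± 0.24, adjusted p = 0.0541). Of these, Foxp3 and Il2ra lay lower and Ctla4 and Il2rb higher in both KO libraries, and edgeR called none of the 4. DESeq2 called Il2ra (adjusted p = 0.00152) and Il2rb (0.000362), and edgeR without the filter on low counts called Il2ra (0.00852), Il2rb (0.00421) and Ctla4 (0.0113). The log2 fold change of Ctla4 was 1.01 without KO replicate 1 and 2.22 without WT replicate 2 (edgeR adjusted p = 0.00476). Tnfrsf18, the receptor GITR, had 91.1 and 71.3 CPM in KO and 70.1 and 88.1 CPM in WT libraries, and Tnfrsf9 stood at -0.07 (adjusted p = 0.877).

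Of the 22 genes of this list, 0 were higher and 1 lower over all genes tested (edgeR). By unadjusted p (under 0.05) 2 stood higher and 7 lower, while DESeq2 calls numbered 1 and 5. Over all tested genes the shares in either direction were 25.5% by unadjusted p and 12.8% by DESeq2. The called gene was Swap70, a guanine exchange factor that B cells also express strongly, which fell to 88.0 and 89.3 CPM in KO libraries, against 353 and 183 CPM in WT libraries (-1.60 ± 0.30, adjusted p = 0.0434). The summed B cell markers were lower in the same libraries and highest in WT replicate 1, as Swap70 was. Their part in the Swap70 difference was not tested. Without WT replicate 1 the log2 fold change of Swap70 was -1.04. Swap70, Dpp4, Slc29a2 and Gsn were no longer called without either KO library, and Swap70 was also not called with upper quartile factors (edgeR adjusted p = 0.0524). Over the 7 related lists, 105 genes were tested and 2 were higher and 2 lower, which is 3.81% of them beside 3.95% of all tested genes.

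Set against Foxp3 in the same library, the members are described here after their values were seen. Foxp3 lay lower in both KO libraries, which raises every such ratio there. Lrrc32 had 0.848 and 0.892 counts per Foxp3 count in KO libraries and 1.01 and 0.848 in WT libraries, so the groups overlapped. Ikzf4 had 0.603 and 0.453 counts per Foxp3 count in KO libraries and 0.603 and 0.887 in WT libraries, with KO replicate 1 and WT replicate 1 nearly equal. Ikzf2 had 2.20 and 2.27 in KO and 1.80 and 1.71 in WT libraries. For Nrp1 and Nt5e the groups were farther apart. Nrp1 had 1.08 and 1.45 counts per Foxp3 count in KO libraries and 0.269 and 0.360 in WT libraries, and Nt5e 0.794 and 0.925 in KO and 0.213 and 0.325 in WT libraries. Entpd1 (0.787 and 0.462 in KO, 0.230 and 0.341 in WT) and Ebi3 (0.487 and 0.608 in KO, 0.331 and 0.354 in WT) also did not overlap on this scale. Whether the transcripts came from the same cells as Foxp3 cannot be told from bulk libraries.

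**Figure D4:**
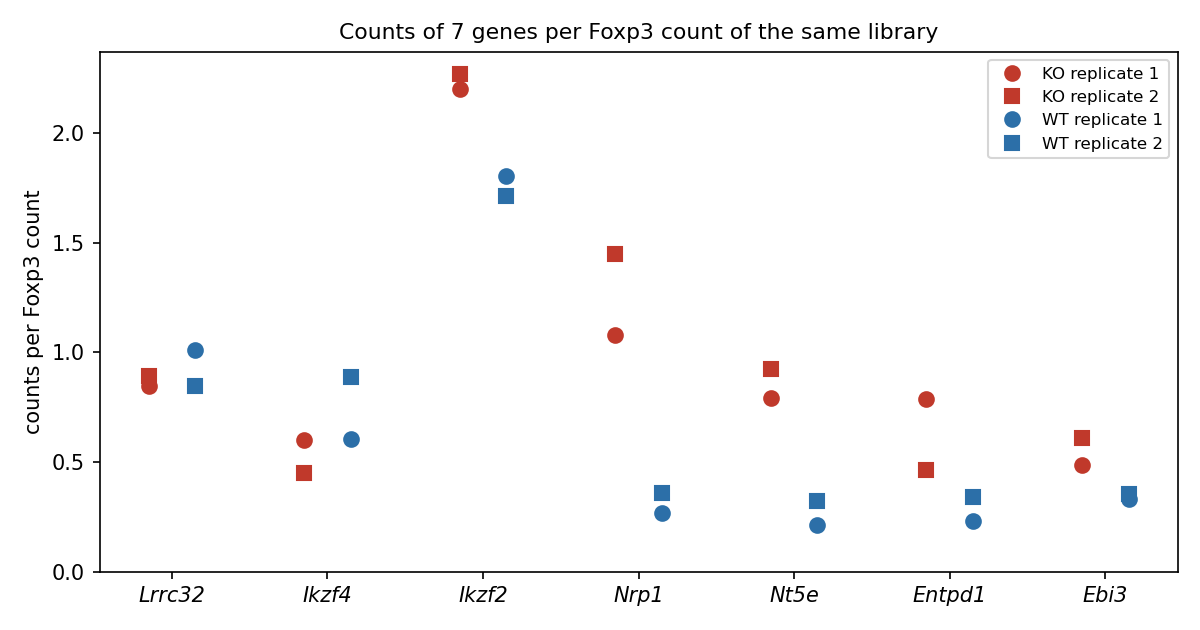
Counts of 7 members divided by the Foxp3 counts of the same library, KO points left of WT points for each gene, circles for replicate 1 and squares for replicate 2; Ikzf1, Ikzf3 and Capg, which are more abundant, are not drawn. Nrp1 and Nt5e lie higher in KO libraries, as do Ikzf2, Entpd1 and Ebi3 by less, while the Lrrc32 values of the 2 groups overlap.

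On the per-length scale the order of the members, averaged over all 4 libraries, was Ikzf1 (317 TPM), Capg (108), Ikzf3 (70.8), Ebi3 (24.4), Lrrc32 (13.2), Ikzf2 (11.3), Ikzf4 (7.48), Entpd1 (5.04), Nrp1 (4.53) and Nt5e (3.79). The ranges of the first 5 over the 4 libraries did not overlap with their neighbours above them, and each neighbouring pair from Lrrc32 to Nt5e overlapped. The 6 lowest are therefore not ordered from one neighbour to the next beyond the spread of the libraries. In KO libraries Nrp1 stood at 6.17 and 6.49 TPM and Ikzf4 at 5.62 and 3.31 TPM, while in WT libraries Nrp1 stood at 2.58 and 2.87 TPM and Ikzf4 at 9.45 and 11.6 TPM, so the order of these 2 differed between the groups. With the longest transcript as the length, the first 4 kept their order, and Nrp1, at 9.75 TPM, stood above Ikzf4.

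**Figure D5:**
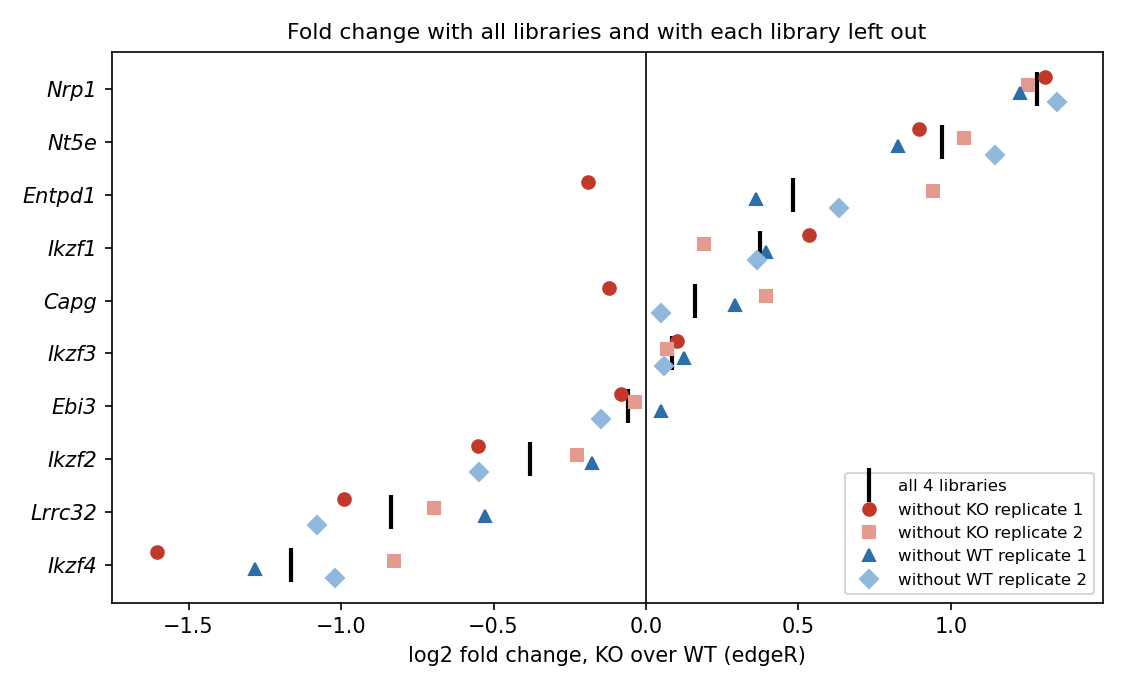
Log2 fold change of each member, KO over WT, with all 4 libraries (black bar) and with each library left out in turn (symbols). Nrp1 stays between 1.23 and 1.35, Entpd1 and Capg fall below 0 without KO replicate 1, and Ikzf4 ranges from -1.60 to -0.83.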

How the data were processed

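The authors deposited whole-number read counts per gene symbol, 1 table per library and not normalized, from ribosome-depleted total RNA per the labels' protocols. Subread 2.0.1, featureCounts, DESeq2 1.30.1, R 4.0.4 and mm10 are the tools and build listed, per the submitters' processing notes. Alignment settings, gene annotation and use of strand were not given in the sources used here. All rows named a gene.

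KO was compared with WT in edgeR 4.0.16 (R 4.3.3) by the quasi-likelihood test on all 4 libraries without covariates, after filterByExpr (minimum count 10, minimum total 15) and TMM scaling (factors 0.968 to 1.027). P-values were adjusted by Benjamini-Hochberg over 12752 genes and called under 0.05. SE is the log2 fold change over the root of F, and 95% intervals use it. CPM use TMM-scaled totals. TPM use the union of GENCODE M21 exons; sequences are from RefSeq (GRCm38.p6). The chi-square per degree of freedom between replicates was 16.1 for KO and 40.3 for WT, so all were counted as separate samples. On simulated counts the fit called 24 of 99 genes changed 2-fold and 82 of 97 changed 4-fold. It also called 4 of 12299 unchanged genes. A missing call near 2-fold therefore does not show that a gene was unchanged. Alternatives were other scalings and filters, DESeq2 1.42.0, limma-voom (limma 3.58.1), a replicate block and leaving out each library.

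Named genes were the members, every called gene of 7 related lists, the 3 most abundant uncalled ones per list a few fixed genes and any gene of a marker list; any other is said to be chosen after its values were seen. Members and lists were chosen with earlier results of these data known. Marker lists of other cell types were handled the same way. Of 201 list entries 199 were matched.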

Additional observations from a re-analysis of the deposited data

How the results depend on the processing

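Over 12 alternatives, 109 of 120 member values kept direction and side of the threshold, 5 passed it (Ikzf4 without a filter and by DESeq2, Nt5e by DESeq2, and Nt5e and Lrrc32 without WT replicate 2), 3 lost it (Nrp1) and 3 changed sign. Leaving out each library in turn gave between 0 and 2 members higher and between 0 and 1 lower, between 0 and 1423 genes higher and between 0 and 1101 lower, and between 0 and 8 related genes higher and between 0 and 11 lower. A lone library in a group is assumed to vary like the other group, whose pair then gives the spread. With all 4 libraries kept, the filter and the test moved counts most: without a filter 737 genes were higher and 682 lower, 1 member lower, and 5 related genes higher and 9 lower; DESeq2 gave 854 and 779, 2 members higher and 1 lower, and 5 and 9 related genes; upper quartile factors gave 122 genes lower and 1 related gene lower. The cause was not tested. Deviations from the group means in KO replicate 1 and WT replicate 1 had a correlation of 0.040 over all tested genes. This single value cannot exclude a pairing that affects some genes. With the replicate block 488 genes were higher and 401 lower, with 5 and 8 related genes. No member call changed (Nrp1 edgeR adjusted p = 0.0348), while Il2ra (0.0435) and Il2rb (0.0271) passed. Il2rb also passed by limma-voom (0.0479) and without WT replicate 2 (0.00197), Il2ra without WT replicate 1 (0.0431) and Foxp3 without WT replicate 2 (0.0477).

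Leaving out a library moved the log2 fold change of Entpd1 between -0.19 and 0.94, Capg between -0.12 and 0.39, Ebi3 between -0.15 and 0.048, Tnfrsf9 between -0.38 and 0.20, Chd4 between -0.011 and 0.25, Rbbp7 between -0.089 and 0.24, Tgfbr2 between -0.19 and 0.38, Il12rb1 between -0.36 and 0.18, Il6st between -0.015 and 0.40, Tnfrsf18 between -0.15 and 0.22, Il27 between -0.90 and 1.84 and Tgfb1 between -0.10 and 0.036, so none of these has a settled direction. Tnfrsf18 was -0.0082 with library size only, and Il27 0.25 by limma-voom and 0.13 with the replicate block. Counts of about 100, as for Entpd1 and Ikzf4 in KO replicate 2, limit precision.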

Other observations

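Itgae, which encodes the integrin chain CD103 found on a subset of regulatory T cells, was chosen after its values were seen because it had the same pattern as Entpd1: 20.0 CPM in KO replicate 1 and 8.17 CPM in KO replicate 2, against 9.47 and 9.19 CPM in WT replicates 1 and 2. Neither gene passed the edgeR test (adjusted p = 0.417 for Itgae and 0.493 for Entpd1).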
